A study of Mus musculus with 10 samples.

Results

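The genes described here are 10 genes of the cartilage matrix and its lead transcription factor: *Sox9*, *Col2a1*, *Col9a1*, *Col9a2*, *Col9a3*, *Col11a1*, *Col11a2*, *Acan*, *Hapln1* and *Comp*. They were taken by gene symbol from a table of estimated counts for 23080 genes, and all 10 were found and passed the filter on low counts. The tissue was the region of the anterior fontanelle (AF), the soft area between the growing frontal and parietal bones of the skull, taken from mouse embryos at E18.5. By the study's methods, the excised piece took in bone as well as suture connective tissue, and left out skin and brain. Bulk RNA-seq was made of 5 libraries labelled WT, called control-labelled here, and of 5 libraries labelled with the genotype Wnt1-Cre; Fgfr2fl/fl, called mutant-labelled here. Wnt1-Cre drives recombination of the floxed *Fgfr2* allele in neural crest cells, so other cells of the tissue keep the receptor. The study's text speaks of littermate pairs, and neither it nor the labels say which libraries form a pair.

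Hyaline cartilage is built from thin collagen fibrils set in a gel of aggregating proteoglycan. The fibrils hold type II collagen, made of 3 identical chains from *Col2a1*, together with type XI collagen, which limits fibril thickness, and type IX collagen, which decorates the fibril surface. The gel is aggrecan, from *Acan*, bound to hyaluronan through link protein, from *Hapln1*, while *Comp* is a thrombospondin that binds collagens in cartilage and tendon. SOX9 is the transcription factor that starts the chondrocyte program and acts on enhancers of *Col2a1*, *Acan* and other genes of this set. Not all of these genes belong to cartilage alone: the type XI chains can assemble with type V chains in bone and other tissues, and *Sox9* is also made in progenitor and neural crest cells. The calvarial bones form without a cartilage model, so the question put to these data was which of the 10 genes behaved in the AF as cartilage genes and which were shared with bone.

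The libraries held 20774667 to 28515434 counts each, of which the 10 genes took 0.2205% to 0.2907% and ribosomal RNA genes 18.74% to 33.56%. *Fgfr2*, the gene targeted in the mutant, went against the label. Its level was 175.8 to 234.6 CPM (the count as a share of the library's TMM-scaled total) under the control label and 273.4 to 356.7 CPM under the mutant label (log2 fold change 0.67, edgeR adjusted p = 0.0486). This gene count sums reads over all exons, does not resolve a deletion of part of the gene, and includes 314 exon bases shared with *Ctbp2*, so the directions below follow the labels as given. The osteoblast markers spanned a wide range: *Ibsp*, a bone matrix protein, was at 1507.5 to 1926.2 CPM under the control label and 827.1 to 1536.5 CPM under the mutant label, and *Kcnk2*, the lowest of the list, at 7.19 to 12.2 CPM and 6.76 to 9.18 CPM. The chondrocyte markers outside the 10 genes did so as well in the control-labelled libraries. The highest were *Col27a1* at 123.3 ± 11.9 and *Fgfr3* at 62.2 ± 8.49 CPM, which other tissues also make, and *Chad* was at 21.8 ± 3.43 and *Epyc* at 18.9 ± 4.03 CPM (SD, n = 5). At the low end were the matrilin *Matn1* at 0.794 ± 0.49 CPM and the chondrocyte peptide *Cytl1* at 0.449 ± 0.176 CPM in the same libraries (SD, n = 5). Skeletal muscle genes summed to 712.5 CPM in control-labelled replicate 2 and 707.9 CPM in mutant-labelled replicate 1, against 17.4 to 140.3 CPM elsewhere. The neuron list summed to most in mutant-labelled replicate 2, in all but the neurofilament genes *Nefl* and *Nefm*, which were highest in mutant-labelled replicate 1. The labels number the replicates without naming embryos, and p-values measure the spread between these libraries.

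The promoters of 3 of these genes are printed because these genes stood for the different behaviors below. *Col9a2* was higher in mutant-labelled libraries, and *Col11a1* and *Col11a2* were the most abundant of the set. Each sequence runs from 250 bases before to 50 bases after an annotated start in RefSeq (GRCm38.p6), and capitals mark GGGCGG, the core of a GC box, on either strand, or TATAAA.
*Col9a2* promoter, chr4:121039316-121039615, plus strand: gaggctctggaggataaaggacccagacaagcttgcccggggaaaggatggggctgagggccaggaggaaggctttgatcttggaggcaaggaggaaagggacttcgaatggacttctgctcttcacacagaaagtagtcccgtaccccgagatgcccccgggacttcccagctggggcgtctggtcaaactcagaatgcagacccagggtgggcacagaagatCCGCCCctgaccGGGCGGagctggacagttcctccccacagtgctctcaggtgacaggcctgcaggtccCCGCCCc
*Col11a1* promoter, chr3:114030290-114030589, plus strand: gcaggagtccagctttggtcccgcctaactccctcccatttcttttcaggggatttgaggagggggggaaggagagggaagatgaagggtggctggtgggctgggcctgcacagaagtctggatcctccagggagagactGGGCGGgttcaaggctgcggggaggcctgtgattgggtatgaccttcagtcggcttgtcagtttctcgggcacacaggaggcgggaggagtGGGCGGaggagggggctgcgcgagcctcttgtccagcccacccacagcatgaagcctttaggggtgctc
*Col11a2* promoter, chr17:34038888-34039187, plus strand: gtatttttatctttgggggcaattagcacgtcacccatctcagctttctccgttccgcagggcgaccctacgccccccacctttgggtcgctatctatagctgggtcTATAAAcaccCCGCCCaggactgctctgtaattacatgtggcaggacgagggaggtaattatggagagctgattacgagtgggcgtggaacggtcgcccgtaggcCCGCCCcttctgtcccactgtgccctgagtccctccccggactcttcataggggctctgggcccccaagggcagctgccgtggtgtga
The table held 7 such windows for 6 of the 10 genes, namely *Col9a1* with its 2 starts, *Col9a2*, *Col11a1*, *Col11a2*, *Acan* and *Hapln1*. *Sox9*, *Col2a1*, *Col9a3* and *Comp* were not matched. GGGCGG was found on either strand in 4 of the 7 windows, those of *Col9a2*, *Col11a1*, *Col11a2* and *Acan*, against 35.7% of all 32851 windows of this length. TATAAA was found on either strand in the *Col11a2* window and in 13.6% of all windows. ACAAAG and ACAATG, which are cores that SOX proteins bind, were searched on both strands and occurred in 0 of the 7 windows, against 18.7% and 12.6% of all windows. These matches describe letters in a window and say nothing on binding. The windows differed in base composition, with a GC content of 47.3% and 55.7% at the *Col9a1* starts and 74% at *Acan*.

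Levels were first compared between genes, as CPM per kb of exon. The type XI chains led the set and type II collagen did not. In control-labelled libraries the level was 173 ± 23.1 CPM per kb for *Col11a2* and 77.3 ± 6.83 CPM per kb for *Col11a1* (SD, n = 5). *Acan* followed at 27.6 ± 2.87 CPM per kb, and *Col9a2* at 8.28 ± 0.25 CPM per kb. *Col2a1*, the main chain of cartilage fibrils, reached only 6.08 ± 0.964 CPM per kb. Below it came *Hapln1* at 4.42 ± 0.843, *Sox9* at 4.33 ± 0.486, *Col9a1* at 3.57 ± 1.04 and *Col9a3* at 2.68 ± 0.486 CPM per kb. *Comp* was last at 0.548 ± 0.0597 CPM per kb, from only 32 to 48 counts per library. *Col11a1* and *Col11a2* together gave 82.4% to 87.1% of the summed CPM of the 10 genes in control-labelled libraries and 77.2% to 85.4% in mutant-labelled libraries, while *Col2a1* gave 1.85% to 2.98% and 2.47% to 7.4%.

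The order of the upper levels held inside every library. *Col11a2* was above *Col11a1*, and *Col11a1* above *Acan*, in 10 of 10 libraries, and *Acan* was above *Col9a2* in all 10. *Col9a2* was above *Col2a1* in 5 of 5 control-labelled but only 3 of 5 mutant-labelled libraries. *Hapln1* and *Sox9* could not be ordered, since *Hapln1* was above *Sox9* in 5 of 10 libraries, and *Sox9* was above *Col9a1* in 7 of 10. *Col9a1* was above *Col9a3* in all 10 libraries, and so was *Col9a3* above *Comp*. Exon length bears on this order: with the longest coding transcript in place of all exons, *Col2a1* was at 11 CPM per kb and stood above *Col9a2* at 8.77 CPM per kb, while the first 3 genes and the last 2 kept their places.

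**Figure D1:**
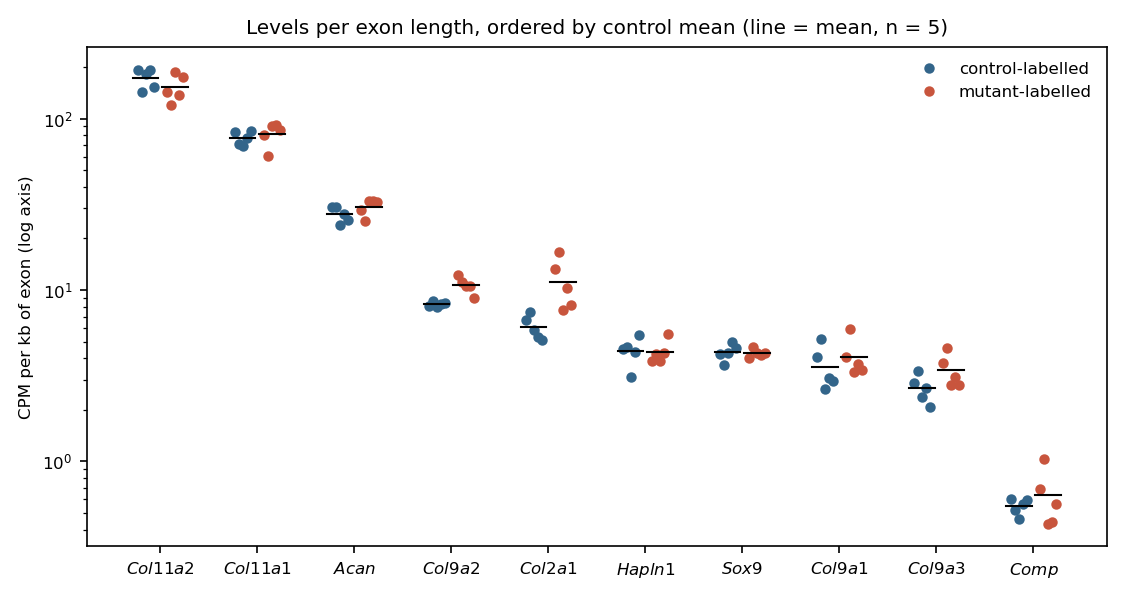
Level of each of the 10 genes in CPM per kb of exon, on a log axis, with 1 point per library, control-labelled in blue and mutant-labelled in red, and a line at each mean (n = 5). *Col11a2* and *Col11a1* lie above all other genes in every library, and *Comp* lies lowest.

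The type XI chains were set against the collagens of bone on the same scale. The level of *Col1a1*, the main collagen of bone, was 10100 ± 671 CPM per kb in control-labelled libraries (SD, n = 5). The type V chains, partners of type XI chains outside cartilage, were at 280 ± 22.4 CPM per kb for *Col5a1* and 234 ± 11.9 CPM per kb for *Col5a2* (SD, n = 5). *Col11a2* and *Col11a1* thus stood below *Col5a1* and *Col5a2* and above *Col2a1*, while the third type V chain, *Col5a3*, was at 8.47 ± 1.61 CPM per kb (SD, n = 5), below both. Versican, from *Vcan*, which is the hyalectan of soft connective tissue, was at 34.1 ± 3.91 CPM per kb, against 27.6 ± 2.87 CPM per kb for aggrecan (SD, n = 5).

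Within a library, the per-kb level of *Col11a2* was 28.6, 19.3, 31.3, 36.1 and 30 times that of *Col2a1* in control-labelled replicates 1 to 5. The same ratio was 10.7, 7.24, 24.5, 13.4 and 21.5 in mutant-labelled replicates 1 to 5. Its size depends on the exon length used: with the longest coding transcript it was 18.2 ± 3.87 under the control label and 9.71 ± 4.57 under the mutant label (SD, n = 5), against 29.1 ± 6.17 and 15.5 ± 7.27 with all exons. The ratio was lower in mutant-labelled libraries, with an overlap of the groups, by a difference of -1.02 on the log2 scale (exact permutation test, two-sided, p = 0.0238, adjusted p = 0.106 over the 8 ratios computed). *Acan* over *Col2a1* was 4.59 ± 0.501 under the control label and 3.05 ± 1.17 under the mutant label (SD, n = 5; log2 difference -0.68, exact permutation p = 0.0317, adjusted p = 0.106). Ratios inside the type IX trimer did not pass either: *Col9a2* over *Col9a3* was 3.17 ± 0.553 and 3.21 ± 0.48 (SD, n = 5; log2 difference 0.019, exact permutation p = 0.897, adjusted p = 0.897). *Col11a1* over *Col11a2* was 0.454 ± 0.0717 and 0.542 ± 0.0782 (SD, n = 5; log2 difference 0.26, exact permutation p = 0.103, adjusted p = 0.206).

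Between the labels, 2 of the 10 genes, *Col2a1* and *Col9a2*, stood higher in mutant-labelled libraries without overlap, and the other 8 overlapped. Over all 16267 genes tested, 1.49% had groups without overlap, 0.787% with the mutant-labelled libraries higher and 0.701% with them lower. By edgeR's quasi-likelihood test, 0 of the 10 genes passed an adjusted p of 0.05, a threshold that 0.0184% of all genes passed. At an unadjusted p under 0.05 there were 2 of the 10, again *Col2a1* and *Col9a2*, against 7.49% of all genes, 3.68% higher and 3.82% lower. DESeq2's Wald test gave both an adjusted p under 0.05, as it did for 0.615% of the 15923 genes to which it gave one. The fitted difference was above 0 for 7 of the 10 genes, against 50.3% of all genes, with a median of 0.17 on the log2 scale, against 0.00074 over all genes. That median was 0.11 when control-labelled replicate 3 was left out, 0.099 when mutant-labelled replicate 2 was, and 0.085 when mutant-labelled replicates 1 and 2 were. In bulk tissue, fewer cells of a type and less RNA per cell cannot be told apart.

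**Figure D2:**
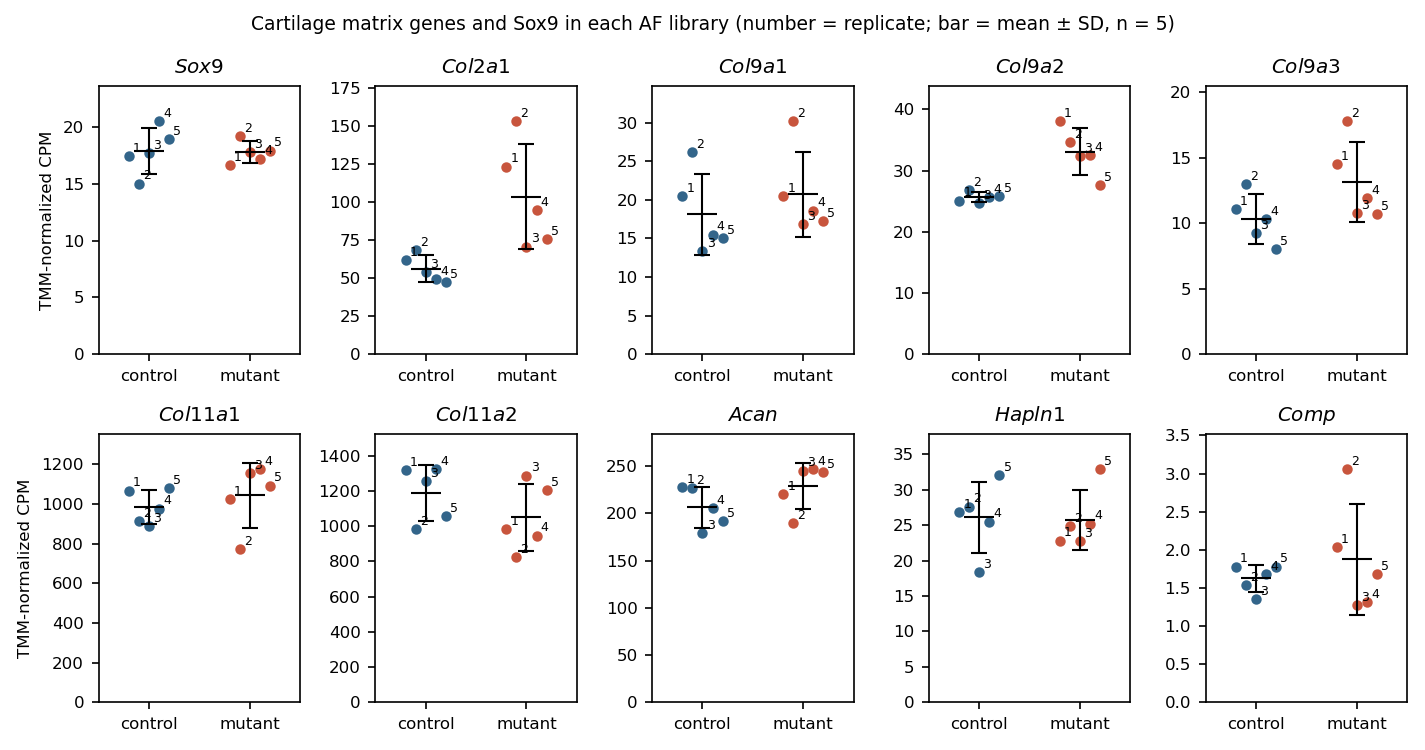
TMM-normalized CPM of each of the 10 genes in each library, numbered by replicate, with mean and SD for the 5 control-labelled (blue) and 5 mutant-labelled (red) libraries; axes start at 0. *Col2a1* and *Col9a2* are the 2 genes whose groups do not overlap, and mutant-labelled replicate 2 is highest for *Col2a1*, *Col9a1*, *Col9a3* and *Comp*.

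*Col2a1* lies on chromosome 15 (GRCm38, 97975602 to 98004695, minus strand). Its level in control-labelled replicates 1 to 5 was 61.9, 68.5, 54, 49.2 and 47.3 CPM. In mutant-labelled replicates 1 to 5 it was 123.2, 153.1, 70.7, 94.8 and 75.6 CPM. Every mutant-labelled library was above every control-labelled one, but replicate 3 of the mutant-labelled group cleared the highest control-labelled library by little, while replicates 1 and 2 stood far above. The fitted log2 fold change was 0.88 (SE 0.2; edgeR adjusted p = 0.302; DESeq2 adjusted p = 0.00357), and the exact permutation test gave p = 0.00794, the smallest that 5 against 5 libraries allow.

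The library with the most *Col2a1*, mutant-labelled replicate 2, also held the most neuron RNA. The neuron list summed to 184.8 and 342.1 CPM in mutant-labelled replicates 1 and 2, against 42.4 to 103.5 CPM in control-labelled libraries and 49.6, 145.6 and 84.6 CPM in mutant-labelled replicates 3 to 5. All 7 neuron genes had a fitted difference above 0, with *Nefm* at 2.04 (SE 0.67, edgeR adjusted p = 0.522) and *Nefl* at 1.92 (SE 0.69, edgeR adjusted p = 0.586) on the log2 scale. Without mutant-labelled replicate 1 these were 0.82 and 0.48, and without mutant-labelled replicate 2 *Syt1* was at -0.16. In mutant-labelled replicate 1 the sum rested on *Nefl* (54.9 CPM) and *Nefm* (45.4 CPM). The other 5 neuron genes summed to 84.5 CPM there, within the 36.1 to 94.2 CPM of control-labelled libraries, against 324.9 CPM in mutant-labelled replicate 2 and 133.1 CPM in replicate 4. *Matn1*, named after its values were seen, was at 3.44 and 4.37 CPM in mutant-labelled replicates 1 and 2 and at 0.214 to 1.34 CPM in the other 8. Their part in the result was not tested. Without both of these libraries, an alternative added after the data were seen, the log2 fold change of *Col2a1* was 0.52 (SE 0.133, edgeR adjusted p = 0.483, unadjusted p = 0.00271).

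The 3 genes of type IX collagen each give 1 chain of its heterotrimer. *Col9a2* (chromosome 4, 121039385 to 121055322, plus strand) was at 25.1, 26.8, 24.7, 25.7 and 25.9 CPM in control-labelled replicates 1 to 5 and at 38.1, 34.7, 32.4, 32.6 and 27.7 CPM in mutant-labelled replicates 1 to 5. The control-labelled values lay within 24.7 to 26.8 CPM, a spread that was small beside that of the mutant-labelled values, and the lowest mutant-labelled library was just above them. The fitted log2 fold change was 0.37 (SE 0.0745; edgeR adjusted p = 0.187; DESeq2 adjusted p = 0.00511), with an exact permutation p of 0.00794. Without mutant-labelled replicates 1 and 2 it was 0.28.

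*Col9a1* (chromosome 1, 24177610 to 24252684, plus strand) was at 20.5, 26.2, 13.4, 15.5 and 15 CPM in control-labelled libraries and at 20.5, 30.2, 16.9, 18.6 and 17.3 CPM in mutant-labelled libraries. Control-labelled replicates 3 to 5 lay below every mutant-labelled library, replicates 1 and 2 did not, and replicate 2 was the highest of each group. The log2 fold change was 0.19 (SE 0.205, edgeR adjusted p = 0.865). It ranged with each library left out from 0.018 without mutant-labelled replicate 2 to 0.37 without control-labelled replicate 2 (edgeR adjusted p = 0.619), with 0.11 without control-labelled replicate 3, and changed sign, to -0.039, without mutant-labelled replicates 1 and 2. *Col9a3* (chromosome 2, 180597790 to 180622189, plus strand) was at 11.1, 13, 9.23, 10.3 and 8.03 CPM and at 14.5, 17.8, 10.8, 11.9 and 10.7 CPM, again with replicate 2 highest in each group. Its log2 fold change was 0.35 (SE 0.163, edgeR adjusted p = 0.66), and it was 0.22 without mutant-labelled replicate 2 and 0.12 without mutant-labelled replicates 1 and 2. It shares 234 exon bases with *Tcfl5* on the opposite strand, a gene with 489 counts over all libraries.

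Both chains of type XI collagen were abundant and overlapped between the labels. *Col11a1* (chromosome 3, 114030540 to 114220718, plus strand) was at 1066.9, 912.9, 888.4, 976.5 and 1080.0 CPM in control-labelled libraries and at 1022.7, 771.3, 1156.5, 1175.9 and 1092.2 CPM in mutant-labelled libraries. Its lowest value was in mutant-labelled replicate 2, the library highest in *Col2a1*. The log2 fold change was 0.084 (SE 0.113, edgeR adjusted p = 0.9), and without replicate 2 of the mutant-labelled group it was 0.18 (edgeR adjusted p = 0.696, unadjusted p = 0.0385). It was 0.053 and 0.045 without mutant-labelled replicates 3 and 4, and 0.038 with library size alone. *Col11a2* (chromosome 17, 34039437 to 34066685, plus strand) was at 1319.4, 981.8, 1256.8, 1324.0 and 1055.9 CPM and at 982.5, 824.5, 1286.6, 945.9 and 1206.7 CPM. It was the only collagen among the 10 genes with a fitted difference below 0 by the main test, at -0.18 (SE 0.133, edgeR adjusted p = 0.79), and mutant-labelled replicates 1, 3 and 5 lay within the control-labelled range. The difference was -0.098 without mutant-labelled replicate 2 and -0.044 without replicates 1 and 2.

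Of the proteoglycan genes, *Acan* (chromosome 7, 79053483 to 79115099, plus strand) was at 228.1, 226.9, 179.4, 205.9 and 191.9 CPM in control-labelled libraries and at 220.2, 189.4, 245.4, 247 and 243.6 CPM in mutant-labelled libraries. Mutant-labelled replicates 3 to 5 were above every control-labelled library and replicates 1 and 2 were not. The log2 fold change was 0.15 (SE 0.0914, edgeR adjusted p = 0.731), and it was 0.26 (unadjusted p = 0.0116, edgeR adjusted p = 0.613) without those 2 libraries, the reverse of the shift seen for *Col2a1*. *Hapln1* (chromosome 13, 89539796 to 89611652, plus strand) ranged from 18.4 to 32.1 CPM with a median of 26.8 in control-labelled libraries, and from 22.7 to 32.9 CPM with a median of 24.9 in mutant-labelled libraries. Its log2 fold change was -0.022 (SE 0.14, edgeR adjusted p = 0.981). *Comp* (chromosome 8, 70373558 to 70382066, plus strand) was at 1.78, 1.54, 1.36, 1.68 and 1.78 CPM and at 2.04, 3.06, 1.28, 1.32 and 1.68 CPM. With 30 to 77 counts per library, its log2 fold change of 0.21 (SE 0.245, edgeR adjusted p = 0.88) rested on mutant-labelled replicate 2 and was -0.038 without that library.

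*Sox9* (chromosome 11, 112782224 to 112787760, plus strand) was at 17.4, 15, 17.7, 20.5 and 18.9 CPM in control-labelled libraries. In mutant-labelled libraries it was at 16.6, 19.2, 17.8, 17.2 and 17.9 CPM, all inside the control-labelled range. The log2 fold change was -0.013 (SE 0.0811, edgeR adjusted p = 0.981, exact permutation p = 0.944). Its sign changed when single libraries were left out, within -0.062 to 0.039. Among the other SOX genes of cartilage, *Sox5* was at 7.89 ± 2.23 and 10.8 ± 3.84 CPM (SD, n = 5; log2 fold change 0.46, edgeR adjusted p = 0.675) and *Sox6* at 44.3 ± 10.7 and 47.5 ± 10.6 CPM (SD, n = 5; log2 fold change 0.1, edgeR adjusted p = 0.93). *Sox6* and *Sox5*, which act with SOX9 on cartilage enhancers, overlapped in level between the labels. *Sox5* was highest at 17.1 CPM in mutant-labelled replicate 2, the library with the most neuron RNA, and its log2 fold change was 0.23 without that library and 0.66 without control-labelled replicate 2. That of *Sox6* ran from -0.039 without mutant-labelled replicate 5 to 0.26 without control-labelled replicate 2.

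**Figure D3:**
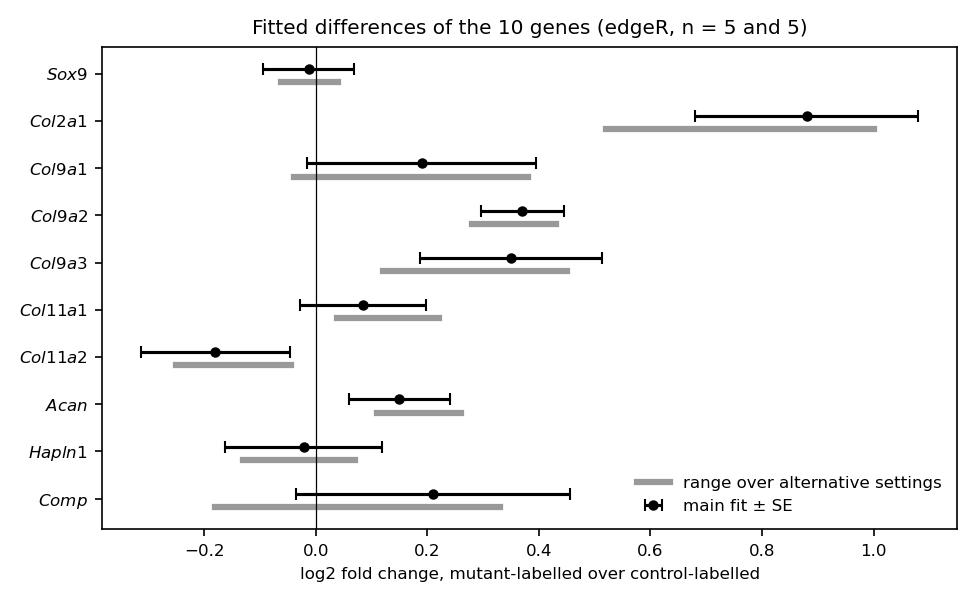
Log2 fold change of each gene, mutant-labelled over control-labelled, as a point with its SE from edgeR (n = 5 and 5), and as a grey bar the range over the alternative settings. *Col2a1*, *Col9a2*, *Col9a3*, *Col11a1* and *Acan* stay above 0 throughout and *Col11a2* stays below 0, while *Sox9*, *Hapln1*, *Col9a1* and *Comp* have ranges that cross 0.

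The surrounding genes of cartilage were counted from fixed lists, at an unadjusted p under 0.05 by edgeR, a level that 3.68% of all genes passed as higher and 3.82% as lower, and none of the list genes passed the adjusted threshold. Of 14 chondrocyte markers tested that are not among the 10 genes, 3 were higher, 3 were lower and 8 were over that p, with a median log2 fold change of 0.13. The median was not stable: it was 0.0031 among genes with at least 10 counts in every library and 0.029 without mutant-labelled replicates 1 and 2. With single libraries left out it was 0.038, 0.059 and 0.064 without control-labelled replicates 3 and 5 and mutant-labelled replicate 4, and 0.2 without control-labelled replicate 2. The higher ones were *Cnmd*, an inhibitor of vessel growth made by chondrocytes, at 5.74 ± 1.17 and 9.05 ± 1.27 CPM (SD, n = 5; log2 fold change 0.65, edgeR adjusted p = 0.296), *Ucma* (0.87, edgeR adjusted p = 0.501) and *Matn3* (1.03, edgeR adjusted p = 0.656). The lower ones were *Epyc*, a small proteoglycan, at 18.9 ± 4.03 and 13.6 ± 1.22 CPM (SD, n = 5; log2 fold change -0.47, edgeR adjusted p = 0.412), *Fgfr3* (-0.23, edgeR adjusted p = 0.624) and *Col10a1*, the collagen of hypertrophic chondrocytes (-0.56, edgeR adjusted p = 0.653). The list held genes in both directions. *Ucma* and *Matn3* lay under 2 CPM in mean, and *Matn3* was at 0.64 without mutant-labelled replicate 2. With single libraries left out, 4 to 7 of the list passed that p, *Cnmd*, *Ucma* and *Epyc* among them each time.

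Of 13 chondrogenic regulators, 1 was higher, *Sox4* (log2 fold change 0.23, edgeR adjusted p = 0.634), and 0 were lower. *Sox4* was at 248.5 CPM in mutant-labelled replicate 2, the library with the most neuron RNA, against 172 to 189.2 CPM in the other mutant-labelled libraries, and its log2 fold change was 0.13 without that library. The part of neuron RNA in this difference was not tested. With single libraries left out, 0 to 3 of the regulators passed, 0 being without control-labelled replicate 1. Of 19 enzymes that glycosylate and sulfate aggrecan, 0 were higher and 2 lower: *Chst11*, a chondroitin sulfotransferase (-0.21, edgeR adjusted p = 0.57), and *Ugdh*, which makes the sugar precursor (-0.18, edgeR adjusted p = 0.653). Of 9 matrix proteases, *Mmp13*, a collagenase of hypertrophic cartilage and bone, was the 1 lower gene (-0.4, edgeR adjusted p = 0.557). Leaving out single libraries gave 1 to 4 of the enzymes and 1 to 2 of the proteases, with *Chst11* and *Mmp13* under that p each time and *Ugdh* in 3 of 10.

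The relatives of the 10 genes behaved as follows. Of 8 other fibrillar collagens, 1 was lower, *Col24a1*, which is expressed in forming bone, at 108.2 ± 4.52 and 84 ± 17.7 CPM (SD, n = 5; log2 fold change -0.37, edgeR adjusted p = 0.531). Of 5 other collagens of the type IX class, which bind fibril surfaces, 1 was lower, *Col22a1* (-0.28, edgeR adjusted p = 0.634), at -0.18 without mutant-labelled replicate 2 and under that p in 3 of 10 fits with a library left out. Of 4 other thrombospondins, *Thbs1* (0.44, edgeR adjusted p = 0.522) and *Thbs2* (0.28, edgeR adjusted p = 0.639) were higher. The other hyalectans and link proteins gave 0 of 4, with *Ncan*, a proteoglycan of the nervous system, lowest in p (0.66, edgeR adjusted p = 0.822). Its sign rested on mutant-labelled replicate 2, the library with the most neuron RNA, where it was at 43.8 CPM against 4.32 to 14.3 CPM in the other mutant-labelled libraries, and without that library it was at -0.18. Single libraries left out gave 1 to 4 of the fibrillar collagens, 0 to 3 of the type IX class, 1 to 3 thrombospondins and 0 hyalectans and link proteins.

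Lists of other cell types in the sample were counted at the same p, against 3.68% of all genes higher and 3.82% lower. The osteoblast list had 0 higher and 10 lower of 20, and all 20 had a fitted difference below 0, with a median of -0.22, among them *Dmp1* of osteocytes (-0.58, edgeR adjusted p = 0.321), the phosphatase *Alpl* (-0.38, edgeR adjusted p = 0.336) and *Ibsp* (-0.58, edgeR adjusted p = 0.348). The tendon and fibrous tissue list had 5 higher and 1 lower of 14, led by *Matn4* (0.64, edgeR adjusted p = 0.183), *Tnmd* (0.58, edgeR adjusted p = 0.326) and *Mkx* (0.31, edgeR adjusted p = 0.412). Neuron genes gave 2 higher of 7, osteoclast genes 1 lower of 7, *Calcr* (-0.54, edgeR adjusted p = 0.632), and skeletal muscle, erythroid, epidermis, endothelium, macrophage and meninges lists 0. With single libraries left out, 10 to 12 osteoblast genes, 3 to 8 of the tendon list (3 without control-labelled replicate 4), 2 to 5 neuron genes and 0 to 3 osteoclast genes passed, and 0 to 2 of each of the lists that had 0.

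Across the 10 libraries, *Col9a1*, *Col9a3* and *Col2a1* were high where the chondrocyte markers under 2 CPM were high, while the mean of the more abundant markers did not follow them, and *Col11a2* was high where osteoblast genes were high. A score for each list was the mean log2 CPM of its genes, and 30 correlations were computed, for 10 genes and 3 lists. The chondrocyte score overlapped between the labels. *Col9a1* followed it with Pearson's r = 0.95 (permutation p = 3e-05, adjusted p = 0.0009; Spearman's rho = 0.99, adjusted p = 0.0003), and r was 0.91 without the 2 libraries farthest from the median. *Col9a3* gave r = 0.91 (permutation p = 0.00022, adjusted p = 0.0022; rho = 0.96, adjusted p = 0.0006), and 0.88 without those libraries. *Col2a1* gave r = 0.78 (permutation p = 0.0069, adjusted p = 0.0296; rho = 0.78, adjusted p = 0.053), and 0.65 without them. The relation of *Col2a1* was the weakest of these: its adjusted p was over 0.05 with library size alone and when any 1 of control-labelled replicates 3 to 5 or mutant-labelled replicates 1, 2, 3 and 5 was left out, with r of 0.67 to 0.79.

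These relations rested on the 6 of the 14 markers with a mean under 2 CPM, *Matn1*, *Matn3*, *Ucma*, *Cytl1*, *Chadl* and *Hapln3*, as checks added after the data were seen showed. A score of those 6 gave r = 0.9 for *Col9a1* (permutation p = 0.00053; rho = 0.96), 0.9 for *Col9a3* (permutation p = 0.00057; rho = 0.9) and 0.87 for *Col2a1* (permutation p = 0.00111; rho = 0.76). A score of the 8 markers of at least 2 CPM gave r = -0.03 (permutation p = 0.935), -0.15 (permutation p = 0.68) and -0.43 (permutation p = 0.218) for the same genes. With the log2 of the list's summed CPM, r was 0.079, -0.17 and -0.41 (permutation p = 0.83, 0.651 and 0.234). That sum was mostly *Col27a1* and *Fgfr3*, which other tissues also make. Their means were 123.3 and 62.2 CPM in control-labelled libraries, against list sums of 235.2 to 275.4 CPM. Taken singly, all 6 scarce markers had r above 0 with each of the 3 genes, and of the 8 abundant ones 4 had with *Col9a1* and 2 with *Col9a3* and *Col2a1*. The abundant markers went both ways: *Cnmd* had r of 0.65, 0.71 and 0.83 with *Col9a1*, *Col9a3* and *Col2a1*, and *Epyc* had -0.66, -0.81 and -0.85. In mutant-labelled replicate 2, which had the highest score, the summed level was the lowest at 228.7 CPM. There, 3 of the 8 were at their lowest, *Epyc* at 12.6, *Ihh* at 4.85 and *Col27a1* at 108 CPM, 1 was at its highest, *Cnmd* at 10.4 CPM, and *Chad*, *Fgfr3*, *Col10a1* and *Mia* lay between.

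The 3 relations with the score of all 14 markers were also computed with the label means removed and the libraries permuted exactly within labels, a check added after the data were seen. They were r = 0.95 for *Col9a1* (exact permutation p = 6.94e-05, the smallest possible; adjusted p = 0.00208), 0.9 for *Col9a3* (exact permutation p = 0.000972, adjusted p = 0.00972) and 0.81 for *Col2a1* (exact permutation p = 0.00153, adjusted p = 0.0115). *Col9a2* and *Comp* did not pass, with r = 0.58 (permutation p = 0.0818, adjusted p = 0.189; rho = 0.67, adjusted p = 0.13) and r = 0.61 (permutation p = 0.0507, adjusted p = 0.152; rho = 0.54, adjusted p = 0.259) over all libraries. *Acan*, *Hapln1* and *Col11a1* had r of 0.29, 0.12 and -0.3 with the chondrocyte score (adjusted permutation p = 0.579, 0.857 and 0.579; rho = 0.18, 0.03 and -0.21, adjusted p = 0.729, 0.946 and 0.728). The lowest r were those of *Col11a2* and *Sox9*. *Col11a2* had r = -0.59 (permutation p = 0.0744, adjusted p = 0.186; rho = -0.59, adjusted p = 0.202), and -0.3 without the 2 farthest libraries. *Sox9* had r = -0.36 (permutation p = 0.308, adjusted p = 0.579; rho = -0.37, adjusted p = 0.614), which was -0.82 without control-labelled replicate 3 and mutant-labelled replicate 2, the 2 farthest. With label means removed it was -0.38. It was then -0.35 without control-labelled replicate 2 and mutant-labelled replicate 2, the 2 farthest after that removal.

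The osteoblast score separated the labels, at 8.0 to 8.26 in control-labelled and 7.72 to 7.98 in mutant-labelled libraries, so it was related to the genes only with label means removed. *Col11a2* followed it, with r = 0.92 (exact permutation p = 0.000764 within labels, adjusted p = 0.00972; rho = 0.93, adjusted p = 0.0115), and r was 0.97 without the 2 farthest libraries and 0.9 to 0.95 with each library left out. It depended on the scaling: with library size alone in place of TMM it was 0.55, while r with the chondrocyte score was then 0.97 for *Col9a1*, 0.92 for *Col9a3* and 0.88 for *Col2a1*. With the log2 of the osteoblast list's summed CPM in place of the mean, r with *Col11a2* was 0.79 (exact permutation p = 0.00882 within labels). That sum was mostly type I collagen. In control-labelled libraries *Col1a1* and *Col1a2* had means of 66246.4 and 37468.0 CPM, against list sums of 100667.5 to 118155.2 CPM. On the TMM scale, in each group the library with the lowest osteoblast score had the least *Col11a2* and that with the highest score or next to it had the most. *Col2a1* went the other way, with r = -0.76 (exact permutation p = 0.0292 within labels, adjusted p = 0.132; rho = -0.66, adjusted p = 0.24), and so did *Col9a1* with r = -0.68 (exact permutation p = 0.0412, adjusted p = 0.154; rho = -0.64, adjusted p = 0.24), but neither passed after adjustment. *Col11a1*, the partner chain of *Col11a2*, gave r = 0.4 (exact permutation p = 0.34, adjusted p = 0.6; rho = 0.21, adjusted p = 0.839). The other 6 genes had r of -0.61 (*Col9a2*) to 0.46 (*Sox9*), with adjusted p of 0.24 to 0.935 (exact permutation). The difference between these correlations was not tested.

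**Figure D4:**
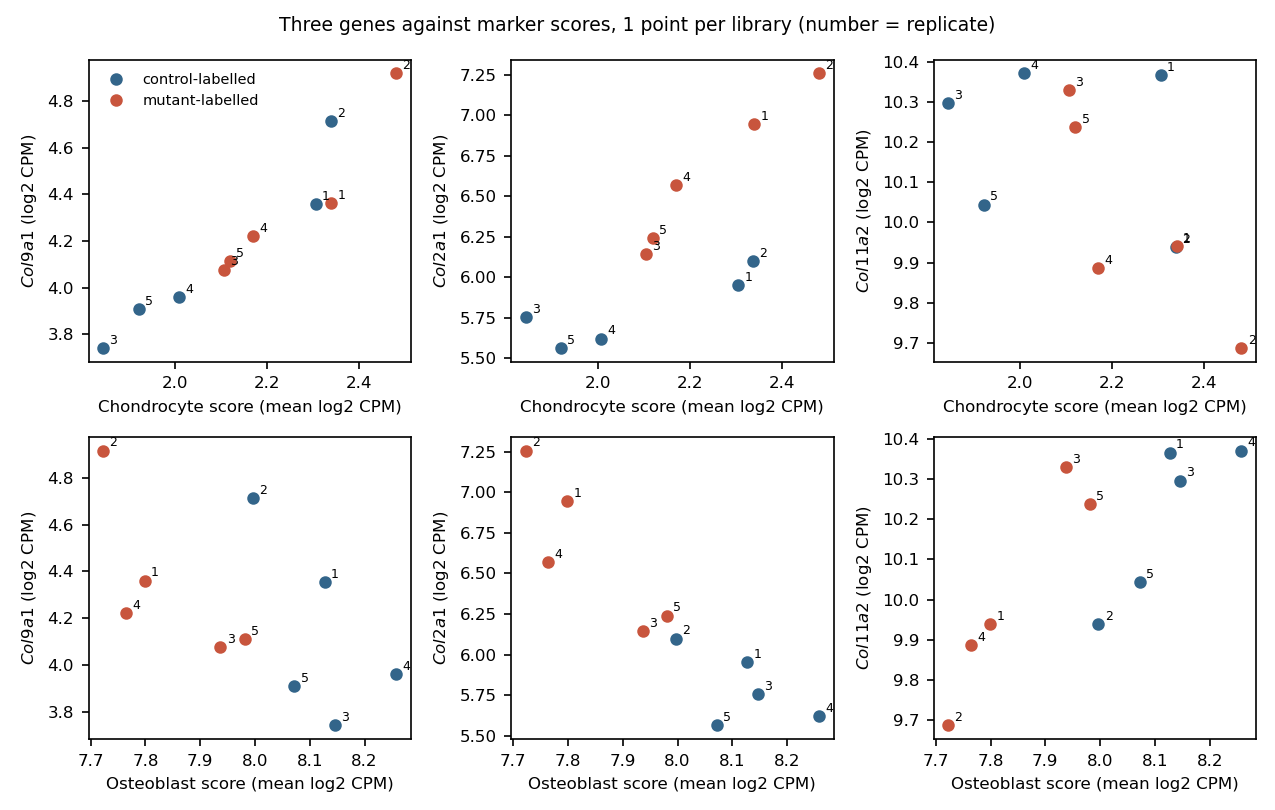
Log2 CPM of *Col9a1*, *Col2a1* and *Col11a2* (columns) against the chondrocyte score (top) and the osteoblast score (bottom), with 1 point per library, control-labelled in blue and mutant-labelled in red, numbered by replicate. *Col9a1* climbs with the chondrocyte score (r = 0.95), a score whose relation turns on its 6 scarcest genes, and inside each color *Col11a2* climbs with the osteoblast score (r = 0.92 with label means removed).

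The tendon and fibrous tissue score overlapped between the labels and gave 1 relation past the threshold, with *Sox9*. *Sox9* was lower where this score was higher, with r = -0.77 (permutation p = 0.0056, adjusted p = 0.0296; rho = -0.71, adjusted p = 0.102). It was -0.51 without control-labelled replicate 2 and mutant-labelled replicate 1, the 2 farthest libraries and those with the most skeletal muscle RNA, and the adjusted p within labels was 0.0646 (exact permutation), so this relation rests in part on them. With library size alone r was -0.48. The score weights scarce genes as much as abundant ones. *Thbs4* of this list was at 25.0 CPM in control-labelled replicate 2 and 8.17 CPM in mutant-labelled replicate 1, against 1.01 to 7.15 CPM elsewhere. By summed CPM the list was at 7133.8 and 7178.1 CPM in these libraries and highest in mutant-labelled replicates 3 to 5, at 7463.7 to 8024.8 CPM. A relation of *Sox9* with that sum was not tested. *Acan* gave r = 0.72 (permutation p = 0.0248, adjusted p = 0.0827; rho = 0.62, adjusted p = 0.164), and 0.9 without control-labelled replicate 2 and mutant-labelled replicate 1. With label means removed r of *Acan* was 0.67 (exact permutation within labels, adjusted p = 0.169). It was then 0.38 without control-labelled replicate 2 and mutant-labelled replicate 2, the 2 farthest after that removal. The other 8 genes had r of -0.3 (*Comp*) to 0.34 (*Col9a2*), with adjusted p of 0.579 to 0.883 (permutation).

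Among the 45 pairs of the 10 genes, 3 passed an adjusted p of 0.05. *Col2a1* and *Col9a3* had r = 0.91 (permutation p = 0.00026, adjusted p = 0.0117; rho = 0.84, adjusted p = 0.0547; r = 0.73 without the 2 farthest libraries), and *Col9a1* and *Col9a3* had r = 0.88 (permutation p = 0.00082, adjusted p = 0.0133; rho = 0.95, adjusted p = 0.00405; r = 0.81). *Col2a1* and *Col9a2* had r = 0.88 (permutation p = 0.00089, adjusted p = 0.0133; rho = 0.87, adjusted p = 0.0464; r = 0.77). With label means removed, 3 pairs passed: *Col2a1* with *Col9a3* at r = 0.92, *Col9a1* with *Col9a3* at r = 0.9 and *Col2a1* with *Col9a1* at r = 0.83 (each exact permutation, adjusted p = 0.0146), while *Col2a1* with *Col9a2* was at 0.65 (exact permutation p = 0.143, adjusted p = 0.379).

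The genes most like 4 of the set were read over 10 libraries among 14477 genes with a mean of at least 1 CPM, by Pearson's r, as a description without a test. For *Col2a1* these were *Nat8l* (0.947), *Camk2g* (0.947) and *Kif26b* (0.944). For *Col11a2* they were *Pck2* (0.963), *Slc36a2* (0.952) and *Plpp1* (0.944), and for *Sox9* they were *Ccnl1* (0.905), *Impa1* (0.902) and *Serpind1* (0.899). For *Comp* they were *Cd46* (0.933), *Gm20300* (0.921) and *Acvr2a* (0.921). None of these 12 genes belongs to the cartilage lists.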

How the data were processed

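Bulk RNA-seq was made of 5 control-labelled and 5 mutant-labelled AF samples at E18.5, as stranded single-end libraries. The authors deposited a single table with an estimated count for every gene, not scaled between libraries, with a lowest gene sum of 10; 67.18% of values were whole within 1e-09. The submitters' processing notes name Partek and the build mm10; the aligner, the counting and the use of strand are not given in the sources used here. Positions come from GENCODE M21 (GRCm38), where 22296 of 22533 symbols found had the table's position.

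Estimated counts were rounded (the design had assumed whole counts) and tested in R 4.3.3 with edgeR 4.0.16: expression filter (16267 genes tested, 6813 left out), TMM, quasi-likelihood test over all 10 libraries, no covariate, Benjamini-Hochberg adjustment over all genes at 0.05. Log2 CPM used a prior count of 0.5. Single values used exact permutation of the 252 groupings, two-sided, with a smallest p of 0.00794, and correlations used 100000 resamples. Levels per kb used summed exon length. Totals of 20774667 to 28515434 counts set the depth, and a gene at 1 CPM rests on few reads. Pairs of libraries of one label differed beyond counting noise.

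The genes, lists and tests were chosen with earlier results of these data known. Named were the 10 genes and the 3 genes most like *Col2a1*, *Col11a2*, *Sox9* and *Comp*. From each list up to 3 tested genes were named by p among those at an unadjusted p under 0.05. Where a list had no such gene, the design named the one lowest in p, which is printed here only for the hyalectans and link proteins. *Matn1*, *Matn3*, *Cytl1*, *Fgfr3*, *Col10a1*, *Col27a1*, *Chad*, *Chadl*, *Hapln3*, *Ihh*, *Mia*, *Kcnk2*, *Sox5*, *Sox6*, *Vcan*, *Thbs4*, *Syt1*, *Col1a2* and the collagens set beside type XI were named after their values were seen. Alternatives were DESeq2 1.42.0 (size factors and Wald test), limma 3.58.1 voom with quality weights, library size alone, no filter, at least 10 counts in every library, ribosomal RNA genes left out, a replicate block, and each library left out. The relations among the 10 genes, the GGGCGG search, the exclusion of 2 libraries together, removal of label means with permutation within labels, other forms of the scores and the longest transcript were added after the data were seen.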

Additional observations from a re-analysis of the deposited data

Results flagged for a closer look

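In each label's 5 libraries, the highest or lowest CPM of each of the 10 genes was compared with the others by Dixon's test, 20 checks in all, of which chance flags about 1 in 20. *Col9a1* stood apart in mutant-labelled replicate 2, at 30.2 CPM against 16.9 to 20.5 CPM in the other 4. *Hapln1* stood apart in mutant-labelled replicate 5, at 32.9 CPM against 22.7 to 25.2 CPM in the others. Mutant-labelled replicate 2 was also the library with the most neuron RNA, and control-labelled replicate 5 had the highest *Hapln1* of its own group, at 32.1 CPM.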

How the results depend on the processing

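The direction of *Col2a1* and *Col9a2* held in all 20 alternative settings, with log2 fold changes of 0.52 to 1.0 and of 0.28 to 0.43 and adjusted p-values of 0.00357 to 0.675 and 0.00511 to 0.639. So did that of *Col9a3* (0.12 to 0.45), *Acan* (0.11 to 0.26), *Col11a1* (0.038 to 0.22) and *Col11a2* (-0.25 to -0.044), so a stable sign was not particular to those 2 genes. Among the 10 genes, 2 passed an adjusted p of 0.05 by DESeq2's Wald test, *Col2a1* (0.89) and *Col9a2* (0.38), and 0 in every other setting. Over all genes, 3 were called by the main test, 98 by DESeq2's Wald test, 1 with library size alone, 1 with the replicate block, 5 without mutant-labelled replicates 1 and 2, and 1 to 6 when each library was left out. At an unadjusted p under 0.05 there were 4 of the 10 genes with the replicate block (*Col9a1* and *Col9a3* beside the main 2), 4 without mutant-labelled replicates 1 and 2 (*Acan* and *Col11a1* beside them), and 2 to 4 with each library left out, the 4 being without mutant-labelled replicate 2. Same-numbered libraries deviated together by correlations of -0.211 to 0.139, and 0 of 10 correlated best with its own number, so these values do not show that the numbers pair the libraries, nor that they do not, and the block is given only here.

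The sign of genes near 0 moved. Leaving out each library gave -0.062 to 0.039 for *Sox9*, -0.13 to 0.07 for *Hapln1* and -0.038 to 0.33 for *Comp*. *Hapln1* was at 0.032 by limma voom, 0.053 without mutant-labelled replicates 1 and 2 and 0.049 without control-labelled replicate 2 and mutant-labelled replicate 1. Without mutant-labelled replicates 1 and 2, *Col9a1* was at -0.039 and *Comp* at -0.18. The cause was not tested. Counts of 30 to 77 per library limit *Comp*. The median of the osteoblast list stayed at -0.28 to -0.2 and that of the neuron list at 0.23 to 1.13 with each library left out. With the chondrocyte score made of the 8 markers of at least 2 CPM, r was -0.03 for *Col9a1*, -0.15 for *Col9a3* and -0.43 for *Col2a1*, and with the summed CPM it was -0.17 for *Col9a3* and -0.41 for *Col2a1*. Of the correlations with scores under alternatives, 5 reversed, 29 lost and 4 gained the threshold, and 389 did neither.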
